A study of Mus musculus with 8 samples.

Results

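Newly made procollagen chains are modified in the endoplasmic reticulum before they are secreted. The prolyl 4-hydroxylases, whose catalytic subunits are encoded by P4ha1 and P4ha2, hydroxylate proline residues and so make the triple helix stable, and the lysyl hydroxylases Plod1, Plod2 and Plod3 hydroxylate lysine residues that later carry cross-links. Serpinh1 encodes HSP47, a chaperone rather than an enzyme, which binds the folded procollagen helix on its way to the Golgi apparatus. Outside the cell, lysyl oxidase (Lox) and the related oxidases Loxl1, Loxl2 and Loxl3 oxidize lysine and hydroxylysine side chains, and the products cross-link neighbouring collagen or elastin molecules. In the heart these proteins come mainly from fibroblasts and vascular cells, and they set how stiff the extracellular matrix becomes.

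These 10 genes were chosen by their names, each of which stood in 1 row of the deposited table of 43346 genes. Their transcripts were measured by RNA sequencing of ventricular tissue from 8 male C57BL/6 mice. At 7 weeks of age, 4 mice had received 1000000 LLC1 cells, a mouse Lewis lung carcinoma line, and 4 had received PBS vehicle, injected under the skin of the flank, and all were sampled 14 days later. The comparison asks what a tumor growing at a distance does to transcripts of the heart. Mice are named by injection and by the code in their label, such as PBS 1-1, and each was treated as 1 replicate; the labels do not say what the first number of the code stands for. The labels hold no other allele or agent, and body weight, tumor weight and heart function of single mice were not analysed here.

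Levels are counts per 1000000 (CPM) after scaling by edgeR's TMM factors, with the SD over 4 mice beside each mean. The test between groups was edgeR's quasi-likelihood test on all 16111 genes that passed the filter on low counts, and its p-values, adjusted over those genes by the method of Benjamini and Hochberg, are called FDR. Library totals lay between 15342214 and 19747596 counts in tumor-bearing mice and between 12480706 and 16192158 in PBS-injected mice, so that 1 CPM stood for 11.66 to 19.88 counts. All 10 genes passed the filter, with 41 to 6042 counts in a mouse. Cardiomyocyte markers were abundant in every mouse, the summed level of 6 running from 69317 to 84558 CPM. PBS 1-1 stood apart on the second principal component of log2 CPM, which held 25.2% of the variance. Without it, Loxl2, Serpinh1 and Plod1 were still called, and Loxl3 passed the threshold too.

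Of the 10 transcripts, 3 were lower in tumor-bearing mice at an FDR under 0.05 and none was higher. Loxl2 fell to a fold of 0.492, Serpinh1 to one of 0.717 and Plod1 to one of 0.827. Among all genes tested, 8.73% passed that threshold, 4.61% as lower (743 genes) and 4.12% as higher (663 genes). This split depended on scaling, since scaling to total counts alone gave 793 lower and 225 higher genes, with the same 3 of the 10 called. The log2 fold change was below 0 for 9 of the 10, with a median of -0.19, where the median over all genes tested was -0.01. The 4 LLC1 values lay wholly below the 4 PBS values for the same 3 genes. Of all genes tested, 17.2% had groups that did not overlap, 8.27% with lower and 8.89% with higher values in tumor-bearing mice. At an unadjusted p under 0.05 there were 4 genes, the fourth being Loxl3, against 25.5% of all genes.

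**Figure D1:**
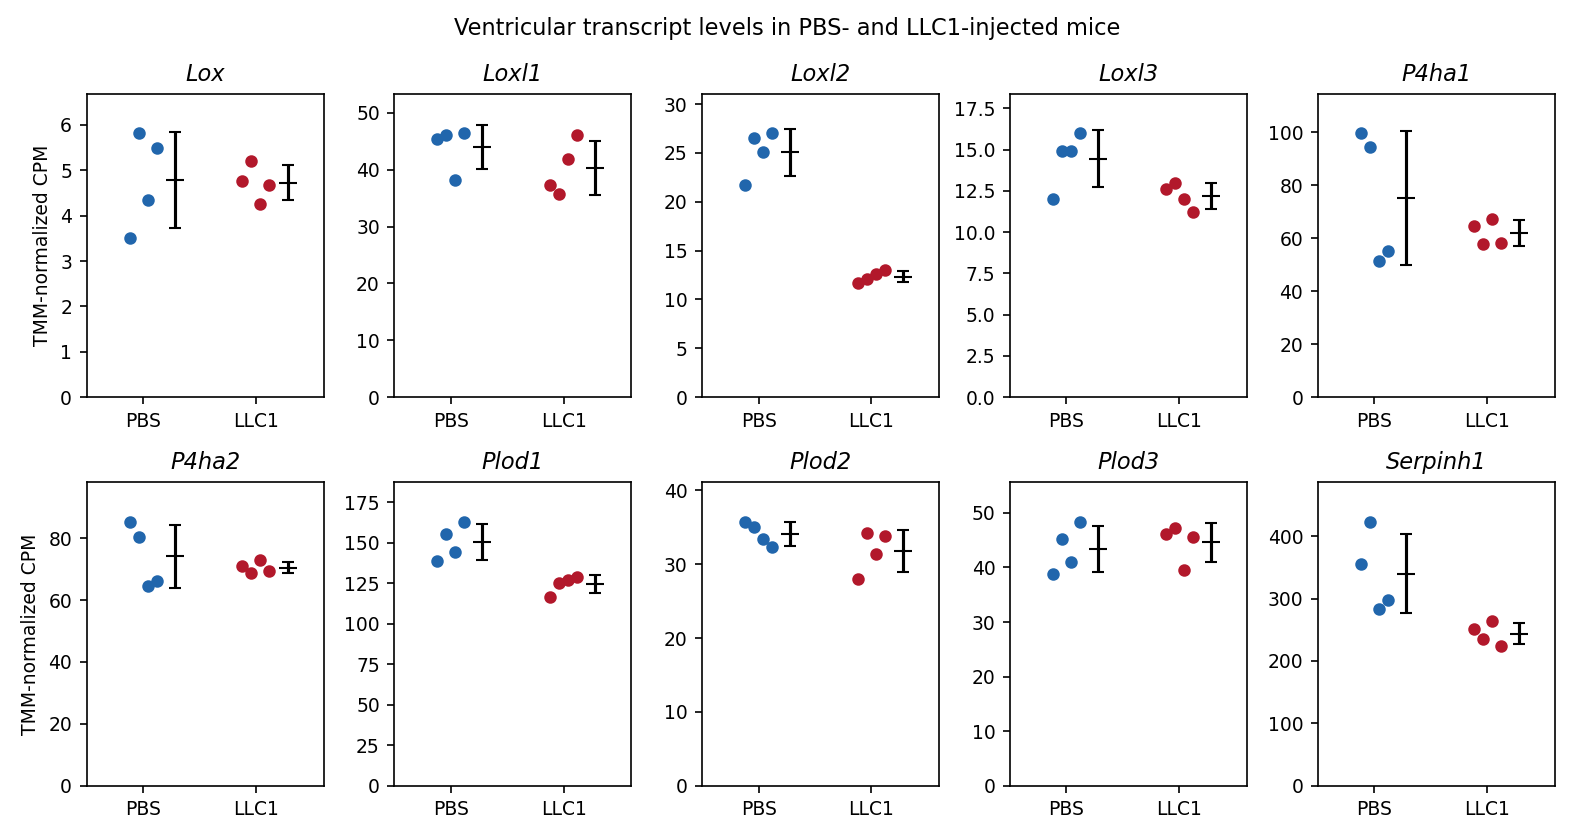
TMM-normalized CPM (vertical axis, starting at 0 and scaled for each gene) in each PBS-injected mouse (blue points) and tumor-bearing mouse (red points), with the mean and SD of 4 mice drawn beside each group. The groups are separate for Loxl2, Plod1 and Serpinh1, while P4ha1 and P4ha2 split the PBS-injected mice into a high pair and a low pair.

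Serpinh1 (chromosome 7, 99345375 to 99353230, minus strand, mm10) was the most abundant of the 10. Its levels in the tumor-bearing mice 1-2, 1-3, 1-5 and 2-2 were 251, 236, 263 and 225 CPM. The PBS-injected mice 1-1, 1-3, 2-1 and 2-5 had 356, 424, 283 and 299 CPM. Every tumor-bearing mouse was therefore below every PBS-injected mouse, although the distance from the highest tumor-bearing mouse to the lowest PBS-injected mouse was small beside that among the PBS-injected mice. Tumor-bearing mice had a mean of 244 ± 17.0 CPM (SD, n = 4) and PBS-injected mice one of 340 ± 63.7 CPM (SD, n = 4). The log2 fold change was -0.48, with a standard error of 0.11 and FDR = 0.0234 in edgeR's quasi-likelihood test. The exact permutation p was 0.0286, which is the smallest that 4 mice against 4 allow in a 2-sided test. Leaving out 1 mouse at a time kept the FDR under 0.05 in 4 of 8 fits, and it lay above that without LLC1 1-2, LLC1 1-3, LLC1 2-2 or PBS 1-3, with a highest value of 0.0734. The log2 fold change over these fits ran from -0.56 to -0.36.

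The prolyl 4-hydroxylase subunits showed no difference between groups that passed the test, but their PBS values were uneven. P4ha1 (chromosome 10, 59323296 to 59373304, plus strand) had 64.6, 57.8, 67.3 and 58.1 CPM in LLC1 1-2, 1-3, 1-5 and 2-2. It had 99.6, 94.3, 51.5 and 55.3 CPM in PBS 1-1, 1-3, 2-1 and 2-5. The 4 tumor-bearing mice lay between the high pair and the low pair of PBS-injected mice, and the SD was 25.3 CPM among PBS-injected mice and 4.77 CPM among tumor-bearing mice. The log2 fold change was -0.27 ± 0.19 (SE, FDR = 0.389, edgeR), with a 95% interval of the fold from 0.624 to 1.10. Left out singly, PBS 1-1 and 1-3 brought it to -0.11 (FDR = 0.718, edgeR) and -0.15 (FDR = 0.692, edgeR), while without PBS 2-1 it was -0.42 (FDR = 0.151, edgeR).

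P4ha2 (chromosome 11, 54100095 to 54131665, plus strand) had the same order of mice within the PBS group. Its levels were 70.9, 68.6, 73.0 and 69.5 CPM in LLC1 1-2, 1-3, 1-5 and 2-2. They were 85.4, 80.3, 64.7 and 66.2 CPM in PBS 1-1, 1-3, 2-1 and 2-5. Here too PBS 1-1 and 1-3 were the highest of the 8 mice and PBS 2-1 and 2-5 the lowest. The log2 fold change was -0.07 ± 0.09 (SE, FDR = 0.663, edgeR), and the 95% interval of the fold ran from 0.833 to 1.09.

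PBS 1-1 and 1-3 were thus the highest mice for Serpinh1, P4ha1 and P4ha2 alike. The share of all genes with this pair highest was not counted. The labels of PBS 1-1 and 1-3 share a code that starts with 1. Among the 5 mice with such a code (3 LLC1, 2 PBS), the ratio of mean CPM, LLC1 over PBS, was 0.652 for P4ha1, 0.855 for P4ha2 and 0.642 for Serpinh1. Among the 3 mice whose code starts with 2, only 1 of which bore a tumor, the ratios were 1.09, 1.06 and 0.772. These ratios are a description, since the mice were set apart after their P4ha1 values had been seen. Without both PBS 1-1 and 1-3, P4ha1 had a log2 fold change of 0.21 (FDR = 0.153, edgeR) and Serpinh1 one of -0.25 (FDR = 0.0736, edgeR). In the 5 mice with a first code number of 1, P4ha1 had -0.62 and Serpinh1 -0.64. No test is read from that fit, since its mice were picked after their P4ha1 values had been seen.

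The levels of 6 heat shock transcripts (Hspa1a, Hspa1b, Hsph1, Hsp90aa1, Hspa8 and Dnajb1) are given as a description, since they were picked after the values of PBS 1-1 had been seen and the choice fixed that this mouse was highest. PBS 1-1 was the highest of the 8 mice for 22.0% of all genes tested. Of the 10 transcripts it was highest for 3, P4ha1, P4ha2 and Plod2, which is near that share. Among the 6 heat shock transcripts, PBS 1-3 was second highest for 4. Summed without the abundant Hspa8, these transcripts came to 476, 266, 161 and 152 CPM in PBS 1-1, 1-3, 2-1 and 2-5. The tumor-bearing mice 1-2, 1-3, 1-5 and 2-2 had 203, 173, 180 and 164 CPM, which lies between the PBS pairs. None of the 6 passed an FDR of 0.05 between the groups in edgeR's test. HSP47, the product of Serpinh1, is itself a heat shock protein. The part of these transcripts in the Serpinh1 and P4ha1 values was not tested.

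**Figure D2:**
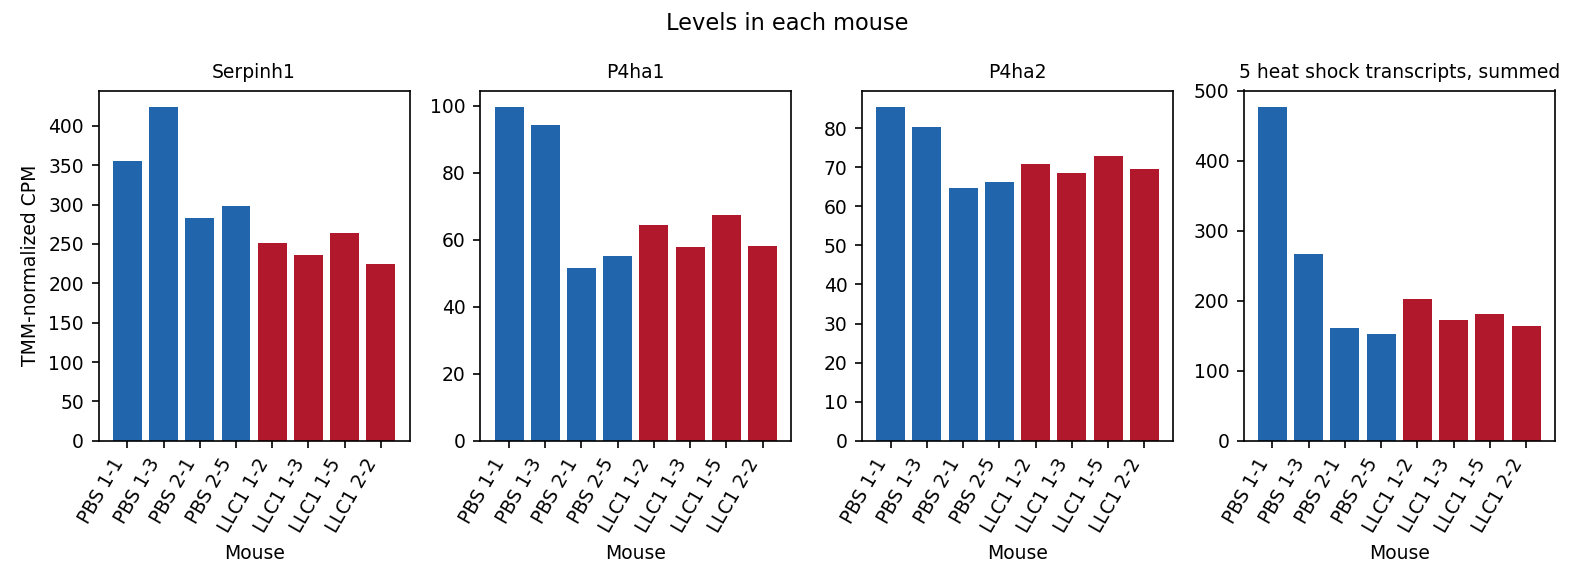
TMM-normalized CPM (vertical axes, starting at 0) in each mouse (horizontal axis; PBS in blue, LLC1 in red) for Serpinh1, P4ha1, P4ha2 and the sum of Hspa1a, Hspa1b, Hsph1, Hsp90aa1 and Dnajb1. Bars are single mice without error. PBS 1-1 and PBS 1-3 are the highest in all 4 panels, and the heat shock sum reaches 476 CPM in PBS 1-1. The heat shock transcripts were picked after the values of PBS 1-1 had been seen, so their panel is a description only.

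Of the lysyl hydroxylases, Plod1 was lower in tumor-bearing mice and the other 2 showed no difference that passed the test. Plod1 (chromosome 4, 147909753 to 147936767, minus strand) acts on lysines of the collagen helix. Its levels in LLC1 1-2, 1-3, 1-5 and 2-2 were 116, 125, 127 and 129 CPM. Those in PBS 1-1, 1-3, 2-1 and 2-5 were 139, 156, 144 and 163 CPM. The groups did not overlap, and PBS 1-1, the highest mouse for P4ha1, was the lowest of the PBS-injected mice here. The mean was 124 ± 5.67 CPM (SD, n = 4) with a tumor and 150 ± 11.0 CPM (SD, n = 4) without. On the log2 scale the change was -0.27 ± 0.07 (SE, FDR = 0.0287, edgeR), and the exact permutation p was 0.0286. The ratio of mean CPM was 0.835 among mice with a first code number of 1 and 0.839 among those with 2. The call held in 3 of 8 fits that left out 1 mouse and was lost without any 1 of the LLC1 mice or PBS 1-3, where the log2 fold change stayed between -0.30 and -0.24 and the highest FDR was 0.0914. Offsets against a gene length trend gave -0.22 with an FDR of 0.0516 in edgeR's test.

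Plod2 (chromosome 9, 92542223 to 92608428, plus strand), which hydroxylates the telopeptide lysines, ran from 28.0 to 34.2 CPM in tumor-bearing mice and from 32.3 to 35.8 CPM in PBS-injected mice. The ranges overlapped, with a fold of 0.935 (95% interval 0.831 to 1.05, FDR = 0.475, edgeR). Plod3 (chromosome 5, 136987019 to 136996648, plus strand), which also adds sugars to hydroxylysine, ran from 39.4 to 47.3 CPM against 38.9 to 48.4 CPM. Its fold was 1.03 (95% interval 0.902 to 1.17, FDR = 0.825, edgeR), the one estimate of the 10 above 1. Of the Plod3 exons 11.7% overlap Znhit1 and of the Plod2 exons 6.42% overlap Gm38391, both on the other strand, and whether counting used strand is not given in the sources used here.

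Since Serpinh1 and Plod1 carried calls and P4ha1 and P4ha2 moved together over the mice, their promoters are shown. The sequences are RefSeq's for build GRCm38.p6, from 250 bases before to 50 after the start that RefSeq gives the gene, 5′ to 3′ on the gene's strand. That start is the one of the deposited table for P4ha1 and Plod3 and lies 9 bases upstream of it for Serpinh1 and Plod1. For P4ha2 it lies 829 bases downstream, so that the P4ha2 window is wholly inside the gene as that table draws it. RefSeq sequences were at hand for 5 of the 10 genes, these 4 and Plod3. Capitals mark ACGTG and GCGTG on either strand, the core letters of the element that hypoxia-inducible factors bind.
Serpinh1 promoter (chr7:99353190-99353489, - strand): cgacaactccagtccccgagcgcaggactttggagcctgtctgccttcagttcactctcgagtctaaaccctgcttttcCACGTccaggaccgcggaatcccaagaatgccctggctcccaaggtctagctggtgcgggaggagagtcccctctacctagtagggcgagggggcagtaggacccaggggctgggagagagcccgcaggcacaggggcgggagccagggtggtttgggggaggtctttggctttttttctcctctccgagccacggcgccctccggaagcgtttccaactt
Plod1 promoter (chr4:147936727-147937026, - strand): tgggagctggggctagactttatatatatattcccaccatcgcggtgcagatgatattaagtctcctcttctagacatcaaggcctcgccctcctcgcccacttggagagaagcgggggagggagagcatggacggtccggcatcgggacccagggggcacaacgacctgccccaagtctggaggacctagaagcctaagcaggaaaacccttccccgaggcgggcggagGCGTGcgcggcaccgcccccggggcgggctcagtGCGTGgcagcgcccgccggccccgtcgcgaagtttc
P4ha1 promoter (chr10:59323046-59323345, + strand): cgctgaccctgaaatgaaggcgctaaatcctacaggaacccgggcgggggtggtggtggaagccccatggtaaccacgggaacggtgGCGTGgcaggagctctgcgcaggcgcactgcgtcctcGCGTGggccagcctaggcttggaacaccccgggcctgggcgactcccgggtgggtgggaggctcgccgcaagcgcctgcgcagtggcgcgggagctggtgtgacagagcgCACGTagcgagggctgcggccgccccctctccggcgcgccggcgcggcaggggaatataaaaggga
P4ha2 promoter (chr11:54100674-54100973, + strand): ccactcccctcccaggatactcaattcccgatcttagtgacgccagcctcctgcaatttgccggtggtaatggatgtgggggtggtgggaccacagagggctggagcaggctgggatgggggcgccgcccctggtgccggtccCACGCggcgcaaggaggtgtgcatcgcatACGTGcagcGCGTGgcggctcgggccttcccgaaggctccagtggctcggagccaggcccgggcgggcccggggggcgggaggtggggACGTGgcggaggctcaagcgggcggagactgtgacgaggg
All 5 promoters held at least 1 ACGTG or GCGTG, as did 43.8% of all 32851 promoters of the same length. ACGTG was in 4 of the 5 and in 19.6% of all promoters, and GCGTG was in 4 of the 5 and in 32.4% of all. Serpinh1 had 1 match, Plod1 had 2, P4ha1 had 3, and P4ha2 and Plod3 had 4 each. The letters GAANNTTC or TTCNNGAA, which are the same on both strands and resemble paired units of a heat shock element, were found once in P4ha2 and once in Plod1 and in 15.1% of all promoters. TATAAA, searched on both strands, was found once each in P4ha1 and Plod1 and in 13.6% of all promoters. These are matches of letters only and tell nothing of a factor's binding.

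Of the lysyl oxidases, Loxl2 fell and its 3 relatives showed no difference that passed the test. Loxl2 (chromosome 14, 69609068 to 69695834, plus strand) oxidizes lysines of collagen type IV and of fibrillar collagens. Its levels were 11.7, 12.0, 12.6 and 13.0 CPM in LLC1 1-2, 1-3, 1-5 and 2-2, which came from 177 to 258 counts. They were 21.7, 26.5, 25.1 and 27.0 CPM in PBS 1-1, 1-3, 2-1 and 2-5, from 253 to 458 counts. The highest tumor-bearing mouse was well below the lowest PBS-injected mouse, and within each group the mice lay close together. The mean was 12.3 ± 0.572 CPM (SD, n = 4) with a tumor and 25.1 ± 2.40 CPM (SD, n = 4) without. On the log2 scale the change was -1.02 ± 0.09 (SE, FDR = 0.000234, edgeR). The 95% interval of the fold was 0.430 to 0.563, the p-value was the fifth lowest of the 16111 genes, and the exact permutation p was 0.0286.

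The Loxl2 call held in all 8 fits that left out 1 mouse, where the log2 value ran from -1.08 to -0.99, and in all 9 other settings tried on all mice. It also held without PBS 1-1 and 1-3 and in the 5 mice with a first code number of 1. The ratio of mean CPM was 0.503 within that code and 0.498 within the other. A pseudogene, Gm21451, matches 2348 bases of a Loxl2 transcript at 100% identity and had 3 to 9 counts in a mouse. Of 12 genes with a stretch like Loxl2, 9 matched over at most 194 bases. Some of these had more counts than Loxl2, such as Mgea5 with 1802 to 2828 over a match of 184 bases. Their part in the Loxl2 counts was not tested. The antisense gene Gm27177, which covers 5.57% of the Loxl2 exons, had at most 4 counts.

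Lox (chromosome 18, 52516069 to 52529867, minus strand), the enzyme that gave the family its name, was the lowest of the 10, with 41 to 93 counts in a mouse. It ran from 4.27 to 5.20 CPM in tumor-bearing and from 3.52 to 5.82 CPM in PBS-injected mice. Its fold was 0.978, and the 95% interval of 0.766 to 1.25 leaves room for a difference in either direction (FDR = 0.926, edgeR). Loxl1 (chromosome 9, 58287723 to 58313212, minus strand), which acts on elastin, ran from 35.8 to 46.2 CPM against 38.3 to 46.5 CPM, with a fold of 0.917 (95% interval 0.796 to 1.06, FDR = 0.440, edgeR).

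Loxl3 (chromosome 6, 83034173 to 83052562, plus strand), another collagen and elastin oxidase, had an estimate near that of Plod1 but groups that overlapped. It ran from 11.2 to 13.0 CPM in tumor-bearing mice and from 12.0 to 16.0 CPM in PBS-injected mice. The overlap came from PBS 1-1 at 12.0 CPM, and the other PBS-injected mice had 14.9 CPM or more. The log2 fold change was -0.25 ± 0.10 (SE, unadjusted p = 0.0284, FDR = 0.142, edgeR), and without PBS 1-1 it was -0.33 with an FDR of 0.0326 in the same test. Of its 4603 exon bases in GENCODE release M21, 11.6% overlap those of Htra2 on the other strand, which had up to 665 counts in a mouse. The exon length of Loxl3 in the deposited table was 4196 bases.

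**Figure D3:**
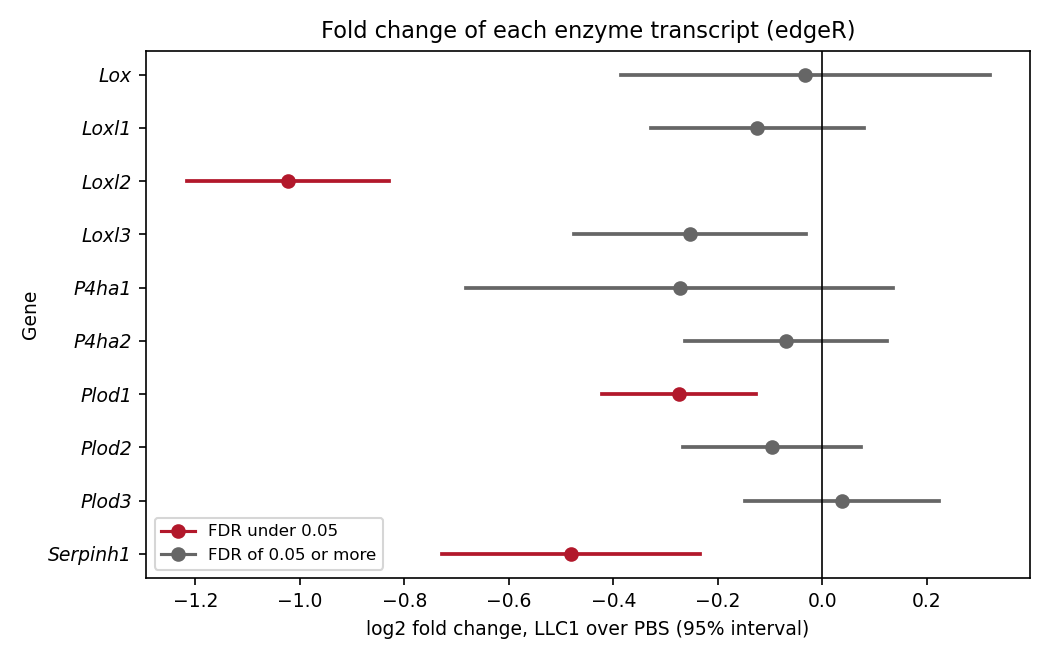
Log2 fold change of each transcript, LLC1 over PBS, from edgeR (horizontal axis), with bars for its 95% interval; red marks an FDR under 0.05 and grey a higher one. Loxl2 at -1.02 lies apart from the other 9, whose estimates run from -0.48 for Serpinh1 to 0.04 for Plod3.

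To compare levels between genes, CPM was divided by each gene's exon length in kilobases. In PBS-injected mice Serpinh1 led on this scale with 139.7 ± 26.2 (SD, n = 4), followed by Plod1 with 22.2, P4ha1 with 18.3, Loxl1 with 13.2, P4ha2 with 11.9, Plod3 with 9.60, Plod2 with 6.33, Loxl2 with 4.64, Loxl3 with 3.45 and Lox with 0.997. The PBS ranges of neighbours overlapped between Plod1 and P4ha1, P4ha1 and Loxl1, Loxl1 and P4ha2, and P4ha2 and Plod3, and the other neighbours were separate. The order in tumor-bearing mice was the same but for 1 exchange. Loxl2, at 4.02 to 5.00, was above Loxl3, at 2.86 to 3.81, in the PBS-injected mice, and at 2.17 to 2.40 it was below Loxl3, at 2.67 to 3.09, in the tumor-bearing mice.

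**Figure D4:**
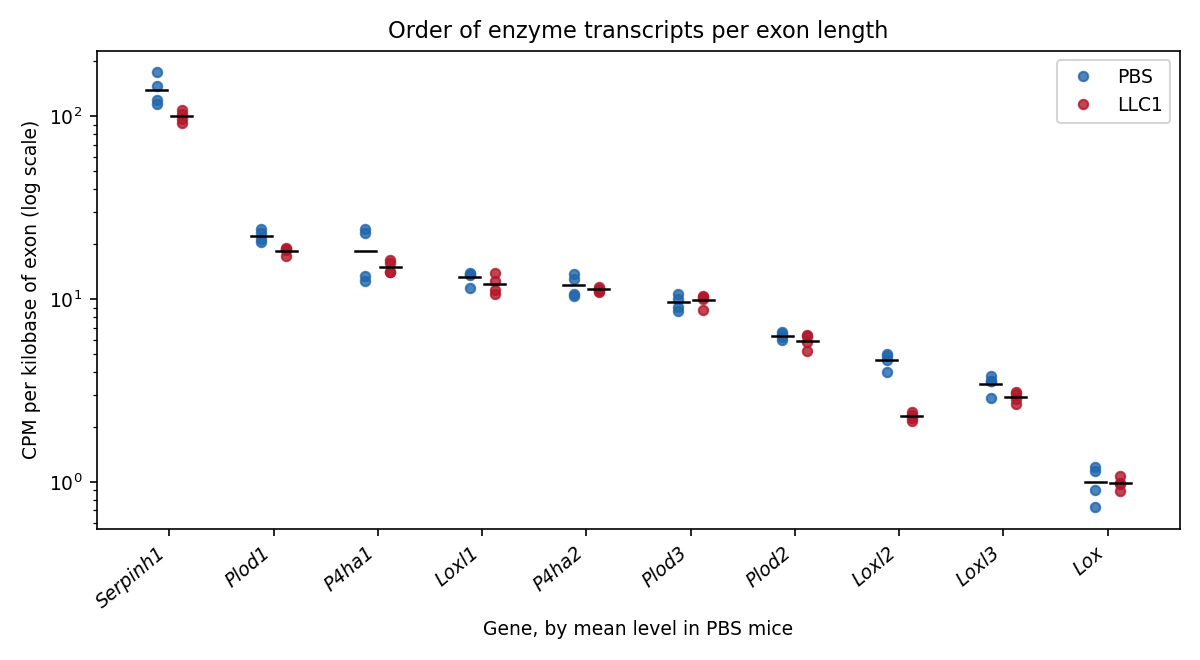
CPM per kilobase of exon on a log axis for each mouse (points; PBS blue, LLC1 red) with the group mean (black line), genes ordered by their mean in PBS-injected mice. Serpinh1 lies far above the rest at 139.7 in PBS-injected mice, and Loxl2 drops below Loxl3 in tumor-bearing mice.

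Ratios between members of a family were taken within each mouse. Of 10 such ratios, 4 had groups that did not overlap, and 3 of these hold Loxl2 and restate its difference. Set against Loxl2, 88.5% of all genes tested had a ratio whose groups did not overlap, and against Plod3 10.0% did. The log2 ratio of Loxl2 to Loxl3 was 0.02 ± 0.15 (SD, n = 4) in tumor-bearing and 0.79 ± 0.05 (SD, n = 4) in PBS-injected mice, a difference of -0.77. The log2 ratio of Lox to Loxl2 was higher in tumor-bearing mice by 1.01 and that of Loxl1 to Loxl2 by 0.88, while that of Plod1 to Plod3 differed by -0.31. Each of the 4 had the smallest exact permutation p that the design allows, 0.0286, which became 0.0714 after adjustment over the 10 ratios. None passed, but an adjusted value under 0.05 would have needed more than 4 of the 10 ratios at that smallest p. As a share of the 4 lysyl oxidase transcripts per exon length, Loxl2 made up 12.5% ± 0.389 (SD, n = 4) in tumor-bearing mice and 20.8% ± 1.49 (SD, n = 4) in PBS-injected mice. Loxl1 was the larger part in both, with 66.0% and 59.2%.

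The transcripts of the substrates were lower too. Of 8 substrate genes, 7 fell (FDR under 0.05, edgeR) and none rose. Col3a1 had the largest change of the 8, from 451 ± 119 CPM (SD, n = 4) in PBS-injected to 229 ± 30.3 CPM (SD, n = 4) in tumor-bearing mice. On the log2 scale it fell by 0.98 ± 0.17 (SE, FDR = 0.00683, edgeR). The fibrillar Col5a1 and Col5a2 fell by 0.64 each on the log2 scale, Col1a2 by 0.63 and Col1a1 by 0.60 (FDR = 0.0456, edgeR). The basement membrane collagens Col4a1 and Col4a2 fell by 0.68 and 0.48. Elastin (Eln) had a log2 fold change of -0.34 and an FDR of 0.0739 in the same edgeR test. The median over the 8 was -0.63, where that of all genes tested was -0.01.

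Each of the 10 transcripts was then set against the summed CPM of Col1a1, Col1a2 and Col3a1 in the same mouse. That sum was 385, 458, 468 and 543 CPM in LLC1 1-2, 1-3, 1-5 and 2-2. It was 539, 872, 815 and 1011 CPM in PBS 1-1, 1-3, 2-1 and 2-5, so that PBS 1-1 was just below the highest tumor-bearing mouse. The ratio to collagen was on average higher in tumor-bearing mice for 9 of the 10 genes and lower for Loxl2. Of all genes tested, 98.4% had a higher ratio, so that the 9 are no result about these genes. The groups did not overlap for Lox, with a difference of 0.78 on the log2 scale, and for Plod3, with 0.82, whereas 43.1% of all genes tested had a ratio to collagen whose groups did not overlap. For Loxl2 the difference was -0.23 (exact permutation p = 0.171). Set against the summed Col4a1 and Col4a2, the ratios of Lox, Loxl2 and Plod3 had separate groups, as did those of 42.3% of all genes tested. Loxl2 was lower relative to these collagens, with a log2 difference of -0.43 (exact permutation p = 0.0286), and Lox and Plod3 were higher, with 0.58 and 0.62. With either denominator the lowest exact p was 0.0952 after adjustment over the 10 ratios, so none passed. Here too, passing would have needed more ratios at the smallest p that the design allows. Without PBS 1-1 the ratios of 7 of the 10 genes had separate groups and so did those of 88.2% of all genes, and without LLC1 2-2 these were 5 of the 10 and 62.0%. With Col1a1 as the sole denominator they were Lox alone and 24.8%. In each of these settings the share among the 10 was below that of all genes.

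Other proteins of the same steps were read from lists. Of 13 procollagen partners in the endoplasmic reticulum, none was called by edgeR at an FDR under 0.05 and 2 had an unadjusted p under 0.05. P4hb, the subunit that P4ha1 and P4ha2 share, had 235 ± 11.7 CPM (SD, n = 4) with a tumor and 236 ± 15.5 CPM (SD, n = 4) without. The lowest p of the list were those of Colgalt2, a collagen galactosyltransferase, with a log2 fold change of -0.35 (FDR = 0.0572, edgeR), and of Fkbp14, a prolyl isomerase, with -0.31 (FDR = 0.118, edgeR). P3h3 and P3h4, of the prolyl 3-hydroxylase family and listed in the table under the older names Leprel2 and Leprel4, had -0.19 and 0.13, and the median over the 13 was -0.05.

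Among 8 genes that process the procollagen propeptides, again none was called by edgeR, with 3 at an unadjusted p under 0.05. Pcolce, an enhancer of the C-proteinase, had a log2 fold change of -0.27, the N-proteinases Adamts2 and Adamts14 had -0.36 and -0.38, and the C-proteinase Tll1, at 1.18 CPM in tumor-bearing and 0.737 CPM in PBS-injected mice, had 0.66. The median over the 8 was -0.22. Loxl4, the remaining lysyl oxidase, had 1.05 ± 0.726 CPM (SD, n = 4) with a tumor and 1.27 ± 0.246 CPM (SD, n = 4) without and was not called, and P4ha3 did not pass the filter.

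Several of these enzymes are known targets of hypoxia-inducible factors or of TGF-beta, so lists of both were read. Of 12 hypoxia-inducible factor targets other than the 10 genes, 1 rose, none fell and 11 were not called, with a median log2 fold change of 0.12. The one that rose was Bnip3, a mitochondrial protein of mitophagy, from 133 ± 14.1 CPM (SD, n = 4) in PBS-injected to 169 ± 14.0 CPM (SD, n = 4) in tumor-bearing mice (log2 fold change 0.35, FDR = 0.0278, edgeR). Egln3, an oxygen sensor, had -0.41 (FDR = 0.0701), Pdk1, which restrains pyruvate oxidation, had 0.21 (FDR = 0.0914) and Slc2a1, a glucose transporter, had 0.32 (FDR = 0.111) in the same edgeR test.

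Of 8 TGF-beta targets, 2 fell, none rose and 6 were not called. The 2 were Postn, a matrix protein of activated fibroblasts, with a log2 fold change of -1.35 (FDR = 0.00113, edgeR), and Skil, a feedback inhibitor of SMAD signalling, with -0.45 (FDR = 0.0305, edgeR). Tgfb1i1, a focal adhesion protein, had -0.40 (FDR = 0.0942) and Ctgf, a matricellular growth factor, had 0.34 (FDR = 0.108) in the same edgeR test. The median over the 8 was -0.30. Of 5 ligands and receptors of the pathway, Tgfb1 and Tgfbr1 fell, with log2 fold changes of -0.44 (FDR = 0.0384) and -0.33 (FDR = 0.0174), and Tgfb2, Tgfb3 and Tgfbr2 were not called, at -0.12, -0.28 and -0.08.

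In whole ventricle, fewer cells of a type and less RNA per cell cannot be told apart. The summed level of 6 fibroblast markers was 1958 to 2383 CPM in tumor-bearing and 1754 to 2035 CPM in PBS-injected mice, 71.7% of it from 1 gene, Gsn. Of the 6, Lum and Ddr2 fell, with log2 fold changes of -0.62 (FDR = 0.00105, edgeR) and -0.50 (FDR = 0.00217, edgeR), and Pdgfra, Dcn, Tcf21 and Gsn were not called. Of 6 endothelial markers 1 fell, Kdr, at -0.61 (FDR = 0.00132, edgeR), and their sum ran from 809 to 938 CPM against 916 to 1212 CPM. The sum of 4 pericyte markers did not overlap, at 688 to 798 against 809 to 936 CPM, with no single marker called. Of that sum 77.4% came from 1 gene, Rgs5, whose groups overlapped. Of 6 macrophage markers 2 fell, Mrc1 and Lyz2, with sums of 226 to 277 against 251 to 375 CPM. Of 6 cardiomyocyte markers 1 rose, Myh6, which made up 65.1% of their sum. That sum was 80878 to 84558 CPM against 69317 to 72949 CPM. Of 6 markers of dividing cells 4 were tested and all 4 fell, with sums of 2.37 to 4.92 against 14.5 to 46.5 CPM. No gene was called among the markers of smooth muscle (106 to 166 against 153 to 204 CPM), atrial myocytes (113 to 339 against 123 to 249 CPM), mesothelium (9.99 to 56.7 against 16.6 to 43.3 CPM) or red blood cells (1428 to 5180 against 1556 to 3097 CPM). Nppa made up 98.3% of the atrial sum. No marker was at 0 in every mouse, and the part of these cells in the values of Loxl2, Serpinh1 and Plod1 was not tested.

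The 3 genes whose log2 CPM, centred on its mean, followed that of Loxl2 most closely over the 8 mice were Col15a1, Pcdh12 and Fstl1. Col15a1 is a collagen of the basement membrane zone, Pcdh12 a protocadherin of endothelial cells and Fstl1 a secreted glycoprotein. The root mean square difference from Loxl2 was 0.09 for Col15a1, 0.10 for Pcdh12 and 0.11 for Fstl1 on the log2 scale, where the median over all genes tested was 0.54. Col15a1 had 88.8 CPM in tumor-bearing and 175 CPM in PBS-injected mice on average, Pcdh12 had 19.6 and 37.7 CPM, and Fstl1 had 73.4 and 134 CPM. This likeness includes the difference between LLC1 and PBS, and no test was made of it.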

How the data were processed

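Total RNA of ventricular tissue was made into TruSeq version 2 libraries and sequenced in 150-base paired-end reads by the authors, who deposited whole-number counts of reads per gene for each of 8 mice, not normalized and not pooled. Per the labels, the submitters' processing notes list CASAVA, STAR, featureCounts and mm10; versions, annotation and strand setting are not given in the sources used here.

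Groups were taken from the stated treatment. Counts of 16111 genes kept by filterByExpr were tested with TMM factors and edgeR 4.0.16 (glmQLFit, glmQLFTest) in R 4.3.3, since the paper names no count test, with Benjamini-Hochberg adjustment and a threshold of 0.05. Intervals are 95% intervals of the fitted fold change. Ratios used log2 CPM with a prior count of 2 and 2-sided exact permutation tests over 70 arrangements. Steps were tested on simulated data. Overlapping exons were read from GENCODE release M21. In it 7 of the 10 genes had the same coordinates, and 6 the same exon length, as in the deposited table. Similar transcripts were searched with BLAST 2.17.0 (at least 97% identity over 150 bases). Figures were drawn with matplotlib 3.10.9. P-values set the difference between groups against the spread of these mice within groups. Nothing shows that the mice came from separate cages or days. If cage or day went with the injection, its effect could not be told apart from that of the tumor.

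Alternatives were upper-quartile factors, total-count scaling, DESeq2 1.42.0, limma-voom (limma 3.58.1), both other filters, robust empirical Bayes, the code's first number as a covariate, length offsets, and each mouse left out. The genes and lists were chosen with earlier results of these data known. All 10 genes were named, up to 4 genes of the lowest p from each list, any gene a member is set against, and the 3 nearest in pattern to the member of lowest p; the heat shock genes, P4hb, Eln, and those given as the uncalled or called rest of a list were named after their values were seen.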

Additional observations from a re-analysis of the deposited data

Results flagged for a closer look

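Of 20 groups examined (10 genes in each of 2 groups of 4 mice), 1 held a mouse far from the others. Loxl1 in PBS 2-1 was at 38.3 CPM, where the other PBS-injected mice had 45.4, 46.1 and 46.5 CPM. The gap to the nearest of them was 0.870 of the group's whole range, above Dixon's 95% critical value for 4 samples. Chance alone flags about 1 in 20 groups.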

How the results depend on the processing

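No paired analysis was possible because the groups share only the code 1-3, which different animals carry. On all 8 mice the 9 other settings gave 1018 to 1747 called genes (main 1406) and 3 called members, or 2 with length offsets. Leaving out 1 mouse at a time gave 542 to 1949 genes, 1 to 4 members and 2 to 7 ratios to collagen without overlap, beside 43.1% to 88.2% of all genes. These ratios numbered 1 over Col1a1 alone (24.8% of all genes) and 3 over Col4a1 and Col4a2 (42.3%). Of 2 settings added after seeing the data, the 5 mice with a first code number of 1 (picked after their P4ha1 values were seen) gave 735 genes and 3 members (Loxl2, P4ha1, Serpinh1), and leaving out PBS 1-1 and 1-3 gave 1196 genes and 2 members (Loxl2, Plod1).

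Of 190 member values under other settings, 166 kept direction and side of the threshold, 12 lost the call, 2 gained it and 10 changed sign, all of these uncalled. Lox changed from -0.03 to 0.00049 (log2) with length offsets, and with 1 mouse left out it ran from -0.14 to 0.062. P4ha2 ran from -0.13 to 0.0045 and Plod3 from -0.010 to 0.093 with 1 mouse left out, and Plod3 was -0.020 with total-count scaling. Without PBS 1-1 and 1-3, P4ha1 changed to 0.21, P4ha2 to 0.11 and Plod3 to -0.0039. The cause was not tested. With total-count scaling the median of all genes moved to -0.06 and the calls split into 225 higher and 793 lower (main 663 and 743).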
